A study of Homo sapiens with 31 samples.

Results

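The cadherins CDH1, CDH2, CDH3, CDH4, CDH6, CDH11 and CDH13, the epithelial adhesion molecule EPCAM, the intermediate filament vimentin (VIM) and the matrix protein fibronectin (FN1) were followed in 31 RNA-sequencing libraries. These 10 genes, of 19221 in the table, were taken by symbol, with earlier results of these data known.

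The libraries came from 4 groups of cultured cells of lines sold or given as ovarian carcinoma. The paper describes C13* as cisplatin-resistant and voices reserve about its use because of its origin. It also cites a report of A2780 as an unlikely line of high-grade serous ovarian cancer. A2780 (n = 8) was the untreated parent line, and A2780 OlaR (n = 8) was a strain of it grown in rising amounts of olaparib, an inhibitor of the repair enzyme PARP, until its IC50 was at least 30 times that of the parent. C13* cells carried a lentiviral control shRNA (shCON, n = 7) or an shRNA against CEBPB, the gene of the transcription factor C/EBPβ (shCEBPB, n = 8). The study compared A2780 OlaR with A2780 to find what accompanies resistance, and shCEBPB with shCON to find what follows loss of C/EBPβ. The sources do not say whether the resistant strain or the transduced cells were single clones, or whether olaparib was in the medium when RNA was taken. The labels of replicate 1 of shCON disagree, with C13* in the title and A2780 in the cell line field, and the title was followed.

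Classical cadherins are calcium-dependent receptors that bind the same cadherin on a neighbouring cell and hold the actin skeleton through catenins. CDH1 (E-cadherin) and CDH3 (P-cadherin) are typical of epithelia, and CDH2 (N-cadherin) of neural and mesenchymal cells. The type I members here are CDH1, CDH2, CDH3 and CDH4, and the type II members are CDH6 and CDH11. CDH13 (T-cadherin) is held in the membrane by a lipid anchor and lacks the catenin-binding tail, so it is not a classical cadherin. EPCAM, VIM and FN1 are of other families and are commonly read beside cadherins, EPCAM as an epithelial marker and VIM and FN1 as mesenchymal ones.

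Values are FPKM, fragments on a gene scaled by gene length and library total, so levels of different genes are on 1 length-scaled scale. FPKM of low genes lay on whole multiples of a step, and the reads behind each value were recovered from these steps for 18008 of 18009 detected genes, within 0.02 of a read. Recovered reads came to between 33.4 M and 47.4 M per library. Pearson's r between libraries (12967 genes, log2 values) had a median of 0.993 to 0.997 within the groups. Between groups the median was 0.989 for A2780 OlaR and C13* shCON and 0.706 for A2780 OlaR and A2780. It was 0.789 for shCON and shCEBPB and 0.788 for A2780 OlaR and shCEBPB. The resistant strain was thus nearer to another labelled cell line than to its own parent. The shCEBPB libraries were about as near to A2780 OlaR as to shCON, their own control. These similarities touch the comparisons that include the resistant strain or shCEBPB, and their part in those comparisons was not tested. Summed FPKM of 5 squamous markers was 1760 to 2129 in A2780 OlaR and 1551 to 1822 in shCON. It was 0.0767 to 0.22 in A2780, where KRT5 and KRT6A had no read, and 0 to 0.316 in shCEBPB. Of 6 ovarian and Müllerian markers, 5 had a mean under 1 FPKM in A2780, 4 in A2780 OlaR, 3 in shCON and 5 in shCEBPB, and EMX2 had no read in A2780 OlaR or shCON. FOLR1, of the same list, averaged 887 FPKM in shCEBPB, 1.2 in shCON, 0.91 in A2780 OlaR and 13.3 in A2780. The leukocyte marker CD3E had no read in any group, while PTPRC averaged 85.9 FPKM in A2780 and at most 0.0018 in the others. CD68, the remaining marker of that list, was 2.22 in A2780, 41.9 in A2780 OlaR, 65.4 in shCON and 11.7 in shCEBPB. CEBPB itself averaged 47.1 ± 9.05 FPKM in shCEBPB and 85.8 ± 9.93 in shCON (SD), with no overlap between libraries.

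CDH1, CDH3 and EPCAM were high in A2780 OlaR and C13* shCON and close to absent in A2780 and C13* shCEBPB. VIM had the reverse order, with its highest level in A2780 and its lowest in A2780 OlaR. CDH2 was highest in A2780 and lowest in shCEBPB, CDH13 was highest in shCEBPB, and FN1 was low only in A2780 among the 4 groups. Changes were tested with limma on log2(FPKM + 1) for genes that reached 1 FPKM in a number of libraries equal to the size of the smaller group, and called at an adjusted p under 0.05. CDH4, CDH6 and CDH11 stayed below that level in each comparison and were not tested. In A2780 OlaR against A2780, 7 of 7 members tested were called, 5 higher and 2 lower, where 89.8% of the 12458 genes tested were called, 40.1% higher and 49.7% lower. In shCEBPB against shCON, 7 of 7 were called, 2 higher and 5 lower, where 84.7% of the 12006 genes tested were called, 38.9% higher and 45.7% lower. Libraries did not overlap for 7 of 7 members in the first comparison and 6 of 7 in the second, where they did not for 74.1% and 66% of genes tested. These shares are near the background, and members at or near 0 in one group entered the test only through the other. A log2 difference of at least 1 (a fold of 2) was reached by 7 of 7 members and 5 of 7, where 35.7% and 29.5% of genes reached it with a call. Folds are ratios of mean FPKM, and log2 differences are of log2(FPKM + 1), where the added 1 shrinks changes of low genes. Where both are given they are not the same quantity.

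**Figure D1:**
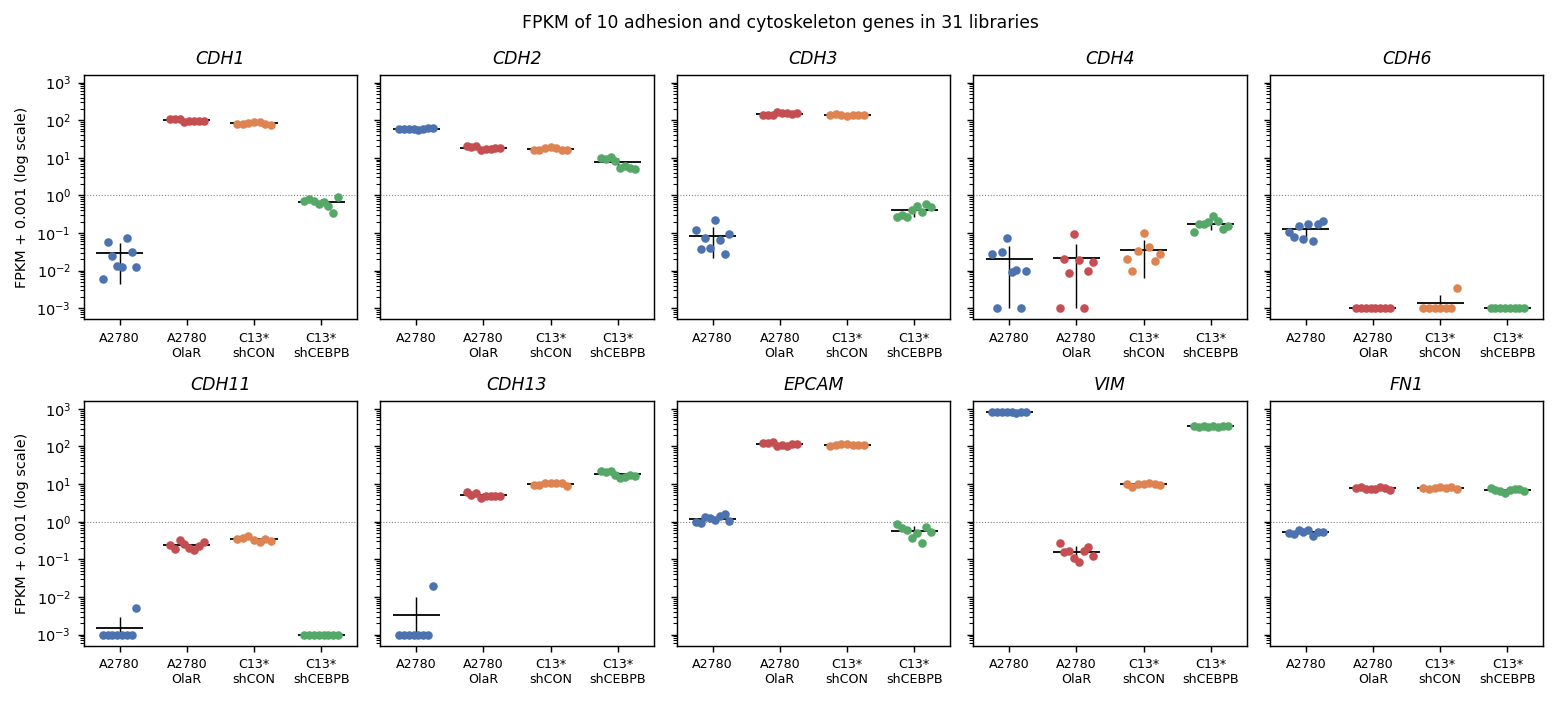
FPKM + 0.001 on a log scale for each of 10 genes, with 1 point per library in A2780 (n = 8), A2780 OlaR (n = 8), C13* shCON (n = 7) and, at the right, C13* shCEBPB (n = 8). The horizontal line is the mean, the vertical line 1 SD (stopped at 0), the dotted line 1 FPKM, and points at 0.001 are libraries with no read. CDH1, CDH3 and EPCAM have means of 82.9 to 148 FPKM in A2780 OlaR and shCON and of at most 1.2 FPKM in A2780 and shCEBPB.

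CDH1 encodes E-cadherin, the main adhesion receptor of epithelial adherens junctions. It lies on chromosome 16 of hg38 from 68737292 to 68835537 on the plus strand, with 16 exons in its main transcript. In A2780 its lowest, median and highest FPKM were 0.00501, 0.0177 and 0.0745, from 1 to 12 reads per library. In A2780 OlaR they were 91.4, 97 and 107, from at least 15709 reads. No library of one group came near the other. The means were 0.028 ± 0.0247 and 99.5 ± 6.12 FPKM (SD, n = 8 each), a log2 difference of 6.61 (SE 0.04, adjusted p = 5.46e-28). The read ratio was 3520, with a 95% counting interval of 2595 to 4906 that covers counting error only. In shCON the values were 76.5, 81 and 88.4, and in shCEBPB 0.349, 0.677 and 0.9. All 8 shCEBPB libraries were below all 7 shCON libraries. The mean was 127-fold lower in shCEBPB, a log2 difference of -5.67 (SE 0.06, adjusted p = 4.67e-22). The residual CDH1 of shCEBPB was still above A2780, with 989 reads against 41 and no overlap of libraries, a read ratio of 23 (16.9 to 32.3). In bulk RNA, fewer cells with a transcript and less of it per cell cannot be told apart.

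CDH3 encodes P-cadherin, found in basal layers of stratified epithelia. It lies on the same strand just before CDH1 on chromosome 16, from 68636189 to 68727468, and the gap between these genes is 9823 bp. CDH3 had the highest level of the cadherins in A2780 OlaR, with 136, 149 and 162 FPKM as lowest, median and highest. A2780 had 0.0262, 0.0687 and 0.219, from 94 reads over all 8 libraries. The groups lay far apart, with a log2 difference of 7.11 (SE 0.05, adjusted p = 3.97e-27) and means that differed 1766-fold. In shCON the values were 133, 140 and 146, and in shCEBPB 0.261, 0.391 and 0.596. Again no libraries overlapped. The mean was 348-fold lower in shCEBPB, a log2 difference of -6.65 (SE 0.05, adjusted p = 7.51e-24). CDH1 and CDH3 were low in the same groups, but CDH1 was below CDH3 in both high groups and above it in shCEBPB (0.655 ± 0.171 against 0.399 ± 0.126 FPKM, with overlapping ranges).

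EPCAM is an adhesion molecule of simple epithelia and of many carcinomas. It lies on chromosome 2 from 47345158 to 47387601, plus strand, with 9 exons. Unlike CDH1 and CDH3, it was clearly detected in A2780, with 0.938, 1.17 and 1.56 FPKM as lowest, median and highest and at least 64 reads per library. A2780 OlaR had 102, 117 and 128. Each resistant library was far above each parent library, 96.2-fold in the means, a log2 difference of 5.73 (SE 0.06, adjusted p = 4.44e-24). shCON had 106, 110 and 116, and shCEBPB 0.279, 0.562 and 0.874. The mean was 195-fold lower in shCEBPB, a log2 difference of -6.17 (SE 0.07, adjusted p = 3.64e-22). EPCAM in shCEBPB was therefore below its level in A2780, with no overlap and a read ratio of 0.467 (0.406 to 0.536), while CDH1 and CDH3 were above theirs. CDH1, CDH3 and EPCAM were all under the level for limma in shCEBPB against A2780 and were not tested there.

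VIM encodes vimentin, the main intermediate filament of mesenchymal cells. It lies on chromosome 10 from 17228241 to 17237593, plus strand, with 10 exons, and 656 bp of its exons are shared with the antisense gene VIM-AS1. Use of the strand in counting is not given in the sources used here, so reads of these overlapping genes cannot be told apart. A2780 had 784, 808 and 827 FPKM as lowest, median and highest, a coefficient of variation of 1.7%. A2780 OlaR had 0.0857, 0.159 and 0.265, from 8 to 20 reads per library. The most abundant member of the parent line was thus near its floor in the resistant strain. The means differed 5065-fold, a log2 difference of -9.45 (SE 0.03, adjusted p = 4.5e-31). In shCON the values were 8.49, 10.1 and 10.5, and in shCEBPB 328, 342 and 360. VIM was higher in every shCEBPB library, 34.8-fold in the means, a log2 difference of 4.99 (SE 0.04, adjusted p = 8.61e-24).

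**Figure D2:**
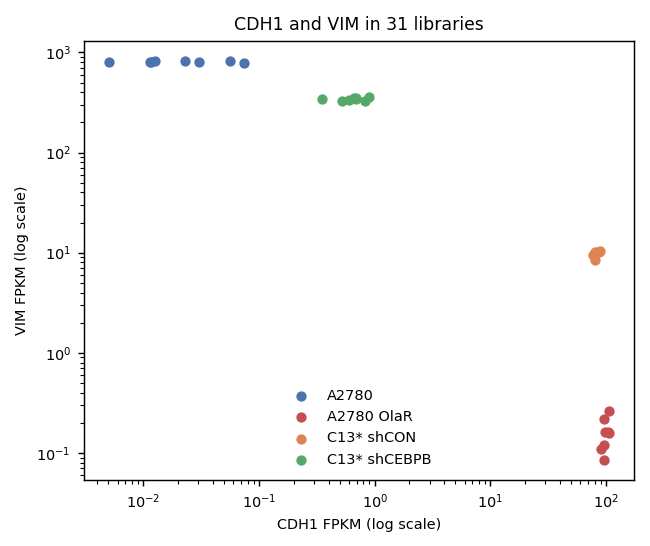
CDH1 FPKM against VIM FPKM, both on log scales, with 1 point for each of 31 libraries coloured by group. The 4 groups form separate clusters, and A2780 OlaR and C13* shCON lie close on the CDH1 axis (means 99.5 and 82.9 FPKM) and apart on the VIM axis (0.16 and 9.82).

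VIM also separated the high-CDH1 groups from each other. shCON had 61.5 times the mean VIM of A2780 OlaR (9.82 ± 0.648 against 0.16 ± 0.0585 FPKM), a log2 difference of 3.22 (adjusted p = 2.59e-18). VIM was therefore ordered A2780, shCEBPB, shCON and A2780 OlaR, and each neighbouring pair differed with no overlap. Between shCEBPB and A2780 the log2 difference was -1.24 (adjusted p = 1.41e-18), 2.37-fold lower in the means.

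FN1 encodes fibronectin, a matrix glycoprotein bound by integrins. It lies on chromosome 2 from 215360440 to 215436073, minus strand, with 46 exons. In A2780 its lowest, median and highest FPKM were 0.412, 0.537 and 0.604, and in A2780 OlaR 6.95, 7.71 and 8.39. FN1 rose 14.7-fold in the resistant strain with no overlap, a log2 difference of 2.51 (SE 0.04, adjusted p = 1.8e-21). Although FN1 and VIM are both read as mesenchymal markers, they moved in opposite directions in this comparison. In shCON the values were 7.37, 7.85 and 8.56, and in shCEBPB 5.95, 7 and 8.01. These ranges overlapped, and the difference was small, 1.13-fold lower in shCEBPB, a log2 difference of -0.16 (SE 0.06, adjusted p = 0.012, exact permutation p = 0.00777). It did not pass with quantile normalization (-0.03, adjusted p = 0.649), with a block for the replicate number (-0.15, adjusted p = 0.0656) or in the libraries coded 1 to 3 (-0.06, adjusted p = 0.435). At 6.98 to 7.93 FPKM, the means of shCEBPB, A2780 OlaR and shCON were neighbours whose spreads overlapped.

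The promoters of VIM and FN1 are shown because these genes, both read as mesenchymal, had opposite changes in the resistant strain. RefSeq windows (GRCh38.p14) were found for 4 of the 10 genes, CDH2, CDH4, VIM and FN1, and CDH1, CDH3, CDH6, CDH11, CDH13 and EPCAM had no entry in the table used. The 250 bases before the start of transcription are printed 5′ to 3′ on the strand of the gene, with CG dinucleotides in capitals. VIM is chr10:17227991-17228240, plus strand, and FN1 is chr2:215436069-215436318, minus strand.
VIM: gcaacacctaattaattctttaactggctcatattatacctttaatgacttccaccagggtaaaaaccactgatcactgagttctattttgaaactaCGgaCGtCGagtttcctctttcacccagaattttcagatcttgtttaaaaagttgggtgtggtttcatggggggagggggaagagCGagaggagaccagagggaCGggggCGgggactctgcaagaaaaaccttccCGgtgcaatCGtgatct
FN1: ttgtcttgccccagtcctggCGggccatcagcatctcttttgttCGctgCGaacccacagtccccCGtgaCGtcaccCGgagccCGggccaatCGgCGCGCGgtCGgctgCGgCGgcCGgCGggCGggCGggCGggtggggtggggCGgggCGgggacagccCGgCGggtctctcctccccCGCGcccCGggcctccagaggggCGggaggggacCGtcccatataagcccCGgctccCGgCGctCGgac
The FN1 window had 32 CG dinucleotides and 76.4% G and C, and the VIM window 8 and 46%. Over 27305 promoters of this length the medians were 11 CG and 58%, so the FN1 window lay above and the VIM window below both. Windows at other starts of transcription were not examined. Letters were searched on both strands. The cyclic AMP response element TGACGTCA occurred once in FN1, at -183 to -176, and in 1.77% of all promoters, and a CCAAT box lay at -162 to -158 (33% of promoters). CDH2 had a CCAAT box at -76 to -72, in a window at a start inside the gene as GENCODE places it. The cyclic AMP and CCAAT motifs were added after the sequences were seen. The E-box CAGGTG bound by ZEB and SNAI factors (17.5% of promoters), the C/EBP half-site pair TTGCNNAA (9.13%), the AP-1 letters TGANTCA (6.6%) and TATAAA (11.1%) were not in the VIM, FN1 or CDH2 window. The window of CDH4, which is at a start inside the gene as GENCODE places it, had 1 CAGGTG at -16 to -11 and 1 TTGCGGAA at -217 to -210. No matches overlapped each other, and they only describe these windows.

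CDH2 encodes N-cadherin and lies on chromosome 18 from 27932879 to 28177946, minus strand, with 16 exons. It was the only cadherin of the 7 with over 5 FPKM in each library of each group. A2780 had 55.1, 58.2 and 61.8 FPKM as lowest, median and highest, and A2780 OlaR 16.2, 18.2 and 20.8. It fell 3.18-fold in the resistant strain, a log2 difference of -1.62 (SE 0.05, adjusted p = 1.8e-17), and no libraries overlapped. shCON had 16, 16.6 and 18.9, and shCEBPB 5.19, 7.16 and 10.7. CDH2 was 2.3-fold lower in shCEBPB than in shCON, a log2 difference of -1.14 (SE 0.14, adjusted p = 4.34e-07), again with no overlap. Thus CDH1 and CDH2 were both lower in shCEBPB, and CDH2 was not higher where CDH1 was lost. The order was A2780, A2780 OlaR, shCON and shCEBPB, of which A2780 OlaR and shCON overlapped.

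CDH13 lies on chromosome 16 from 82626965 to 83800640, plus strand, and 2354 bp of its exons are shared with the antisense gene CDH13-AS2. A2780 had 2 reads in all, both in replicate 8. A2780 OlaR had 4.21, 4.79 and 6.22 FPKM as lowest, median and highest, a log2 difference of 2.59 (SE 0.05, adjusted p = 1.53e-19) and a read ratio of 2287 with a counting interval of 633 to 18891. In shCON the values were 8.76, 10.5 and 10.9, and in shCEBPB 14.6, 17.8 and 22.4. CDH13 was the only cadherin tested that was higher in shCEBPB, 1.83-fold, a log2 difference of 0.80 (SE 0.09, adjusted p = 1.21e-07). None of the 4 groups overlapped. Its order, A2780, A2780 OlaR, shCON and shCEBPB from low to high, was the reverse of that of CDH2.

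**Figure D3:**
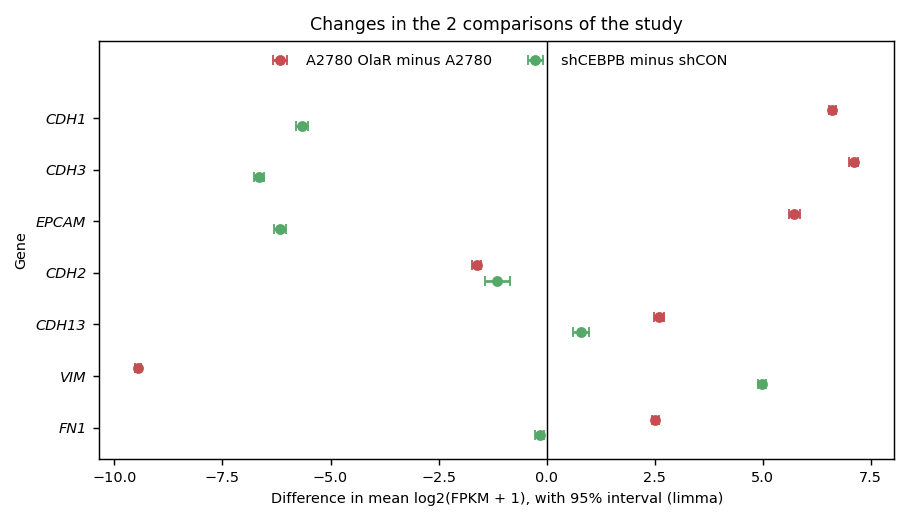
Difference in mean log2(FPKM + 1) with its 95% interval from limma for the 7 genes tested, in A2780 OlaR minus A2780 (8 against 8 libraries) and shCEBPB minus shCON (8 against 7). CDH1, CDH3, EPCAM and VIM have opposite signs in the comparisons, while CDH2 is below 0 and CDH13 above 0 in both.

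The remaining cadherins were rare. CDH4 (R-cadherin, chromosome 20) averaged 0.0194 FPKM in A2780, 0.0203 in A2780 OlaR and 0.0347 in shCON, with 36, 46 and 62 reads in all. In shCEBPB its lowest, median and highest FPKM were 0.105, 0.172 and 0.28, above each shCON library. The read ratio of shCEBPB to shCON was 5.2 (3.96 to 6.92, exact permutation p = 0.000311, the smallest that 7 against 8 libraries allow). CDH6 (K-cadherin, chromosome 5) was read in every A2780 library, at 0.062 to 0.202 FPKM and 333 reads in all. It had no read in A2780 OlaR, which makes it at least 116-fold lower there with 3 reads over the group as the floor, and no read in shCEBPB and 1 in shCON. CDH11 (OB-cadherin, chromosome 16) was at 0.172 to 0.326 FPKM in A2780 OlaR and 0.288 to 0.404 in shCON. It had 1 read in A2780 and none in shCEBPB, at least 242-fold lower than in shCON by the same floor. CDH11, known as a mesenchymal cadherin, was thus read in the same groups as CDH1.

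Summed over the 7 cadherins, FPKM was 58.7 ± 2.27 in A2780, 272 ± 4.31 in A2780 OlaR, 250 ± 3.82 in shCON and 27.3 ± 5.17 in shCEBPB. CDH2 made up 99.5% of the sum in A2780. CDH3 was 54.6% and CDH1 36.7% in A2780 OlaR, where CDH2 was 6.78%. shCON had nearly the same makeup, with 55.7% CDH3, 33.2% CDH1, 6.94% CDH2 and 4.05% CDH13. In shCEBPB, CDH13 was 68.1% and CDH2 27.2%, so the leading cadherin of these 7 there was the one without a catenin-binding tail. That rank depends on gene length, since the FPKM of CDH13 imply 3000 bp and its main transcript has 7876 bp. For these 7, the shCEBPB cells therefore did not have the makeup of A2780, although CDH1, CDH3 and EPCAM were low in both. CDH24, outside the 7, averaged 10.4 FPKM in A2780, 11 in A2780 OlaR, 10.7 in shCON and 7.16 in shCEBPB.

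**Figure D4:**
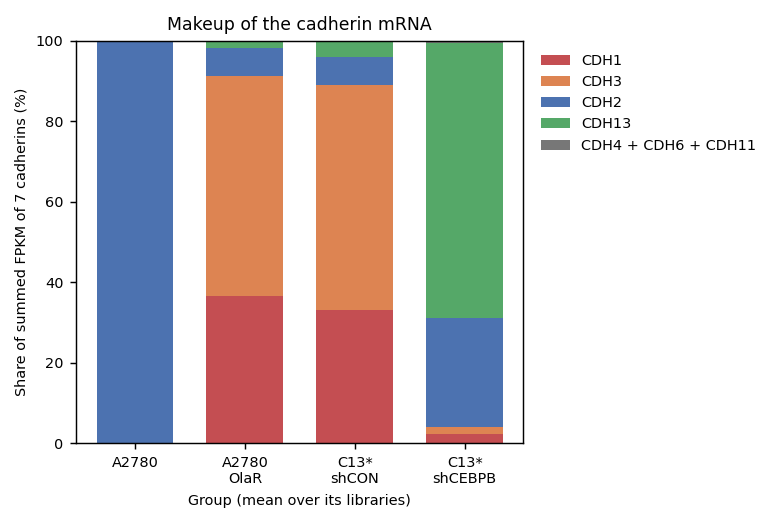
Mean share of each cadherin in the summed FPKM of 7 cadherins, in percent, for each group. CDH2 fills the bar of A2780 (99.5%), CDH3 and CDH1 most of the bars of A2780 OlaR and C13* shCON, and CDH13 most of the bar of C13* shCEBPB (68.1%).

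A2780 OlaR and C13* shCON, of different labelled lines, were compared for the same genes. Of the 7 members tested, 3 were called, where 42.2% of the 11547 genes tested were, and 0.589% had in addition a fold of at least 2. VIM was higher in shCON, as given for that gene, and so was CDH13, 1.99-fold (log2 difference 0.87, adjusted p = 1.6e-08). CDH1 was 1.2-fold lower (log2 difference -0.26, adjusted p = 0.000117). For the other 4 the 95% intervals of the log2 difference were narrow and reached 0: CDH2 -0.19 to 0.04, CDH3 -0.18 to 0.00, EPCAM -0.16 to 0.04 and FN1 -0.06 to 0.13. A p that misses the threshold does not show that these levels were equal. In the other comparisons, which share libraries with those given, 7 of 7 members were called in shCON against A2780 (91.4% of genes called) and in shCEBPB against A2780 OlaR (83.7%). In shCEBPB against A2780, 4 of 4 were called (88.9%), with CDH2 7.73-fold lower and FN1 13.3-fold higher. FN1 in shCEBPB against A2780 OlaR was the weakest of these calls, with a log2 difference of -0.13 and an adjusted p of 0.0388 by limma. It did not pass without A2780 OlaR replicate 1, 2, 6 or 7, or without shCEBPB replicate 3, 4, 5 or 8 (adjusted p between 0.0568 and 0.0841).

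Within groups, some members differed between the libraries coded 1 to 3 and those coded 4 to 8. What the codes stand for is not given in the sources used here. In shCEBPB, CDH2 was 9.53 to 10.7 FPKM in libraries 1 to 3 and 5.19 to 8.12 in 4 to 8, and CDH13 was 21 to 22.4 and 14.6 to 17.8. CDH3 went the other way, with 0.261 to 0.292 and 0.363 to 0.596. CEBPB, the targeted gene, was 30.2 to 42.1 FPKM in shCEBPB libraries 1 to 3 and 47.7 to 58.7 in 4 to 8. Its part in the splits of members was not tested. In A2780 OlaR, CDH1 (105 to 107 against 91.4 to 97.2), CDH2, CDH13 and EPCAM were higher in libraries 1 to 3, and CDH3 was lower (136 to 138 against 148 to 162). In shCON only CDH11 was apart, and in A2780 no member was. How many of all genes were apart between these ranges was not counted. Summed FPKM of whole libraries was 432948 to 435413 in A2780 OlaR libraries 1 to 3 and 448243 to 454578 in 4 to 8. In shCEBPB it was 421616 to 432575 and 443684 to 453895, while in shCON and A2780 the sums of these ranges overlapped. The part of such a shift of whole libraries in the splits of members was not tested. Against shCON, the log2 difference of CDH2 in shCEBPB was -0.71 in libraries 1 to 3 and -1.41 in 4 to 8, and that of CDH13 was 1.08 and 0.63, all with an adjusted p under 0.05 by limma. The log2 difference of CDH1 was -5.59 and -5.72 in these ranges, and that of VIM 5.02 and 4.96.

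**Figure D5:**
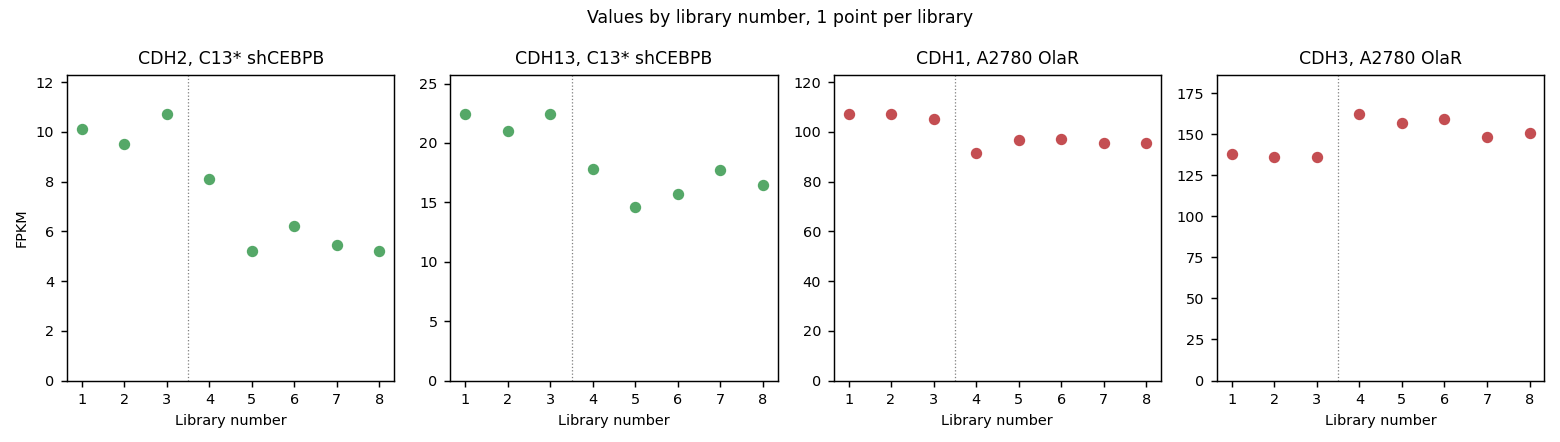
FPKM against the number in the library code for CDH2 and CDH13 in C13* shCEBPB and CDH1 and CDH3 in A2780 OlaR, with 1 point per library and the y axes starting at 0. The dotted line parts libraries 1 to 3 from 4 to 8, and in each panel the points on either side of it do not overlap.

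Partners of these adhesion molecules were read from lists of related genes. The counts that follow stand beside 89.8% of all genes called in A2780 OlaR against A2780 (40.1% higher, 49.7% lower, median log2 difference -0.12) and 84.7% in shCEBPB against shCON (38.9% higher, 45.7% lower, median -0.07), and the shares of each list that were called are mostly near these. Of 15 other cadherins, 4 were expressed enough to be tested in A2780 OlaR against A2780 and 2 in shCEBPB against shCON. CDH12 and CDH10, cadherins known from the brain, averaged 5.98 and 2.3 FPKM in A2780 and at most 0.0313 in each other group, and fell in the resistant strain (log2 difference -2.79 and -1.68). CDH5, the endothelial cadherin, rose there to 1.43 FPKM (log2 difference 1.28, adjusted p = 1.3e-16), while PECAM1 and VWF were under 1 FPKM in all groups. CDH26 fell in shCEBPB, from 1.63 to 0.0201 FPKM (log2 difference -1.36).

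Of 13 catenins and linkers of the adherens junction, 10 were tested. In A2780 OlaR, 5 rose and 4 fell (median log2 difference 0.17, against -0.12 over all genes tested), and in shCEBPB 2 rose and 5 fell (median -0.26, against -0.07). JUP, plakoglobin of junctions and desmosomes, rose from 46.6 to 211 FPKM in A2780 OlaR (adjusted p = 1.1e-17), and was 171 in shCON and 167 in shCEBPB (adjusted p = 0.564). CTNNA1, α-catenin, which ties the complex to actin, was 194 FPKM in A2780, 49.6 in A2780 OlaR, 44 in shCON and 169 in shCEBPB. It was thus lower where CDH1 was higher (adjusted p = 9.01e-19 and 1.9e-17). ARVCF, a p120-type catenin, fell from 12.2 to 1.53 FPKM in shCEBPB, and LIMA1, an actin-binding linker, rose from 22.2 to 59.1 in A2780 OlaR. CTNNB1, β-catenin, was 85.1 to 100 FPKM over the 4 group means, and was not called between shCEBPB and shCON (adjusted p = 0.0627).

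Of 11 partners and proteases of EPCAM, 7 rose and 3 fell of 10 tested in A2780 OlaR (median 3.81), and 2 rose and 9 fell of 11 tested in shCEBPB (median -0.45). ST14, the protease matriptase, which cuts EPCAM, rose from 0.00771 to 39.3 FPKM in A2780 OlaR and fell from 31.5 to 10.8 in shCEBPB. SPINT2 and SPINT1, inhibitors of matriptase, rose from 1.54 to 238 and from 0.134 to 62.5 FPKM, and fell from 238 to 0.319 and from 60.1 to 0.433. CD44, a surface receptor found with EPCAM, was at 0.00121 FPKM in A2780 and 62.6 in A2780 OlaR, but stayed at 42 in shCEBPB against 71.8 in shCON. The shCEBPB cells thus combined low EPCAM with abundant CD44 RNA, unlike A2780.

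Of 13 genes of other intermediate filaments, lamins and their linkers, keratins left out, 4 rose and 5 fell of 9 tested in A2780 OlaR (median -1.18), and 4 rose and 2 fell of 8 tested in shCEBPB (median 0.28). INA, the neuronal filament internexin, was 32.8 FPKM in A2780, had no read in A2780 OlaR, and was 0.207 in shCON and 4.04 in shCEBPB. NEFH, the heavy neurofilament, fell from 20.5 to 0.0102 FPKM and was 0.00831 in shCEBPB. NES, nestin, a partner of vimentin in progenitor cells, fell from 30 to 1.44 FPKM in A2780 OlaR and rose from 1.09 to 2.42 in shCEBPB. PRPH, peripherin, fell from 11.8 to 1.44 in A2780 OlaR. VIM was above each gene of this list in A2780 and in shCEBPB, where the keratins KRT8, KRT7 and KRT18 were higher still (882, 583 and 535 FPKM).

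Of 9 fibronectin receptors and assembly genes, 6 were tested, with 2 rising and 4 falling in A2780 OlaR (median -1.95) and 3 rising and 3 falling in shCEBPB (median 0.38). ITGA5 and ITGB1, the chains of the main fibronectin receptor, fell in A2780 OlaR from 73.1 to 0.863 and from 497 to 82.3 FPKM, where FN1 itself rose. In shCEBPB they rose from 2.18 to 46 and from 104 to 194 FPKM. ITGAV fell in both, from 184 to 22.7 and from 22.5 to 14.9. TGM2, a crosslinker that binds fibronectin, fell from 2.53 to 0.417 in A2780 OlaR and rose from 0.436 to 13.9 in shCEBPB.

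Of 11 regulators of epithelial and mesenchymal state, 7 rose and 2 fell of 10 tested in A2780 OlaR (median 1.53), and 3 rose and 8 fell of 11 tested in shCEBPB (median -0.89). ZEB1, a repressor of CDH1, was 14.5 FPKM in A2780, 0.536 in A2780 OlaR, 0.507 in shCON and 6.55 in shCEBPB (adjusted p = 1.09e-21 and 7.01e-14). GRHL2, an activator of epithelial genes, had no read in A2780 and averaged 22.2 in A2780 OlaR, 15.7 in shCON and 0.0131 in shCEBPB. ESRP1, an epithelial splicing factor, rose from 1.14 to 47 FPKM in A2780 OlaR and fell from 45.1 to 0.00328 in shCEBPB. Its relative ESRP2 was 0.113 in A2780, 24 in A2780 OlaR, 26.4 in shCON and still 20.5 in shCEBPB. The other repressors of the list were mixed. SNAI2 and TWIST2 went opposite to ZEB1, rising in A2780 OlaR (from 0.571 to 13.4 and from 11.4 to 14.4 FPKM). They fell in shCEBPB (from 15.8 to 5.47 and from 13.2 to 7.57). SNAI1 rose from 2.39 to 17.5 FPKM in shCEBPB, and ZEB2 rose there too (adjusted p = 1.7e-13 by limma). In A2780 OlaR, SNAI1 was not called (adjusted p = 0.294 by limma) and ZEB2 was not tested. TWIST1 fell in both, from 40.3 to 6.34 and from 6.52 to 3.07 FPKM.

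Markers of other cell types moved in the same groups, and their part in these results was not tested. All 5 squamous markers rose in A2780 OlaR and fell in shCEBPB, KRT5 from 1530 to 0.0134 FPKM in the latter. Of 4 simple epithelial keratins, 4 rose in A2780 OlaR. In shCEBPB, KRT7, KRT8 and KRT18 rose and only KRT19 fell, so summed FPKM of this list stayed at 1774 to 2148 in shCEBPB against 2119 to 2381 in shCON, while CDH1 and EPCAM were lost. Of 7 fibroblast markers, 6 fell in A2780 OlaR, with COL3A1 at 358 FPKM in A2780 and 0.00772 in A2780 OlaR. In shCEBPB, where VIM was high, COL3A1 averaged 0.00705 FPKM, COL1A2 and LUM had no read, while COL1A1 rose from 3.17 to 16.2 FPKM and PDGFRB from 0.0443 to 4.05 against shCON, and the list summed to 15.5 to 23.3 FPKM, against 3.34 to 4.1 in shCON. Endothelial markers summed to at most 2.39 FPKM in any library.

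The genes most like 5 of the members were sought by Pearson's r of log2(FPKM + 1) over the 31 libraries, among 10744 genes with a mean of at least 5 FPKM in 1 group. The values follow mainly the 4 group means, and many genes share each pattern, so r is a description. AIM1, CASP1 and MAPK13 were most like CDH1 (r = 0.999, 0.999 and 0.998), and 554 genes had r over 0.95 with it. MAL2, RAB25 and ENC1 were most like EPCAM (0.999, 0.998 and 0.998, of 552 genes). PPP2R5A, MSRB3 and KDM5B were most like CDH2 (0.994, 0.992 and 0.991, of 399). PHF20, BET1L and EMP3 were most like VIM (0.989, 0.985 and 0.984, of 163), and EMP3 averaged 105 FPKM in A2780, 2.31 in A2780 OlaR, 4.98 in shCON and 72.6 in shCEBPB. TRIP13, MGST2 and CD44 were most like FN1 (0.997, 0.996 and 0.996, of 490).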

How the data were processed

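mRNA was sequenced in 31 libraries, grouped by the sample titles. Per the paper's methods and the submitters' notes, TopHat placed the reads on hg38 and HTSeq counted them for each gene. What the authors deposited is FPKM in 1 table of 19225 entries. The tool that turned counts into FPKM and the annotation are not given in the sources used here. Entries whose symbol occurred more than once (4) were dropped. Reads were recovered from the FPKM steps as whole multiples, and intervals and floors (3 reads over a group) cover counting error only. They assume that the smallest step is 1 read or read pair.

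For the changes, log2(FPKM + 1) was fitted in limma 3.58.1 under R 4.3.3 (lmFit, eBayes with a trend), with a two-sided test and Benjamini-Hochberg adjustment over all genes tested in a comparison, each with its own 2 groups. Exact permutation tests of mean log2(FPKM + 1) were two-sided. This fit was tested on simulated data. The paper calls its replicates biological without saying what separated them, and nothing in the labels says that they were separate cultures. The p-values therefore measure the spread between these libraries, which may be technical. Tables and exact tests used pandas 2.3.3, scipy 1.17.1 and numpy 2.4.6 under Python 3.11.15, and plots used matplotlib 3.10.9. Positions and exon overlaps are from GENCODE 44 on hg38, and promoters from RefSeq (GRCh38.p14).

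The members and lists were chosen with earlier results of these data known. Named genes were all members, up to 4 called genes of each related list with the largest log2 difference in either study comparison, the genes needed to say which markers were absent, and the 3 genes most like each of CDH1, CDH2, EPCAM, VIM and FN1. CDH24, CTNNB1, SNAI1, SNAI2, TWIST1, TWIST2 and ZEB2 were picked after their values were seen. A gene of the EPCAM list is not reported here and was left out of its counts. The alternatives were pseudocounts of 0.1 and 0.01, no filter and a minimum of 5 FPKM, rescaling to a common sum, quantile normalization, a replicate block, the library ranges, 1 fit of all 4 groups, a fold of at least 2, and leaving out each library. After seeing the data, limma with voom on the recovered reads was added.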

Additional observations from a re-analysis of the deposited data

Results flagged for a closer look

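Of 41 sets of libraries tested for a single value far from the others, 6 stood out, all for rare cadherins, and chance flags about 1 in 20 sets of values that vary evenly. CDH4 was highest in replicate 4 of A2780 (0.0736 FPKM, 16 reads), of A2780 OlaR (0.0923 FPKM, 28 reads) and of shCON (0.0968 FPKM, 22 reads), where the next libraries were at 0.0296, 0.02 and 0.041 FPKM. CDH6 in shCON came from replicate 7 alone (0.00243 FPKM, 1 read). CDH11 in A2780 came from replicate 8 alone (0.00415 FPKM, 1 read), as did CDH13 (0.0188 FPKM, 2 reads). In these last 3 sets each other library was at 0, so that a single library with a read stands out by construction and that rate does not apply. The cause was not tested.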

How the results depend on the processing

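In the study comparisons, CDH1, CDH2, CDH3, CDH13, EPCAM and VIM kept their direction and their call in the alternatives run, except that CDH13 in shCEBPB against shCON (0.80) was under a fold of 2. CDH13 in A2780 OlaR against A2780 was not tested at the minimum of 5 FPKM. With a fold of at least 2 required, 3539 genes were called in shCEBPB against shCON (10166 otherwise), 4446 in A2780 OlaR against A2780 (11190 otherwise), and 1 member in place of 3 in shCON against A2780 OlaR. That last count was 5 in the libraries coded 1 to 3. With no filter, 9 members were called in shCEBPB against A2780 in place of 4, since more low genes were tested. Small differences between shCON and A2780 OlaR changed sign in library ranges, CDH3 (0.04) and FN1 (-0.05) in 1 to 3 and EPCAM (0.01) in 4 to 8. CDH3 passed in 4 to 8 (-0.17, adjusted p = 0.00338), and CDH2 (-0.20) and EPCAM (-0.17) in 1 to 3. FN1 in shCEBPB against A2780 OlaR was also lost with a common sum (-0.11), quantile normalization (-0.01) and in both library ranges. The cause was not tested. Leaving out each library gave 10026 to 10275 and 11157 to 11235 genes called in the study comparisons, and 6 to 7 members in shCEBPB against A2780 OlaR.

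With the replicate number as a block, 9885 and 10960 genes and 6 and 7 members were called in shCEBPB against shCON and A2780 OlaR against A2780. In these comparisons libraries of the same replicate number did not deviate together over all genes tested (mean r of -0.148 over 7 pairs and -0.233 over 8). The number was not taken to pair them. Replicates 6 and 7 of shCON carry the library codes 7 and 8, and pairing of shCEBPB and shCON by code was not checked. Pairing of the other groups was not checked. FN1 in shCEBPB against shCON was the member lost under the block, which changed no other call of a member. Voom on recovered reads called 10142 and 11187 genes and 7 and 7 members. Depth limits CDH4, CDH6 and CDH11, which rest on few reads, and values of other members near 0.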
